A study of Gossypium hirsutum with 6 samples.

Results

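Genes for the enzymes that write and erase histone and DNA methylation, for the histone acetylation enzymes and for the core of RNA silencing were followed in growing cotton fibers. They were chosen by the Swiss-Prot description in the deposited gene table, which had to contain one of these terms: histone-lysine N-methyltransferase, histone deacetylase, histone acetyltransferase, lysine-specific demethylase, DNA (cytosine-5)-methyltransferase, argonaute, Dicer, RNA-dependent RNA polymerase or polycomb. The rule found 295 of the 73622 genes in the table, with 134 on A chromosomes, 154 on D chromosomes and 7 on unplaced contigs, under 87 different descriptions. The table's other description, from the NR protein collection, held a term of a wider list for 246 of the 295. That list includes bare words such as methyltransferase and acetyltransferase, which also name enzymes that do not act on histones or DNA. Fibers of strain 63 of upland cotton (Gossypium hirsutum) were sampled at 5 days (5DPA) and 15 days (15DPA) after the day of flowering, with 3 biological replicates per stage and no treatment named. The labels do not say how many plants or bolls went into a sample, so the p-values measure the spread between these samples. Upland cotton carries an A and a D subgenome, so most genes have a near-identical copy on the other subgenome, and reads may have been split between copies. Values of single copies are uncertain for that reason.

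Chromatin marks set how readily a gene is read. In plants, cytosines are methylated in several sequence contexts by different enzymes, and small RNAs made by RNA-dependent RNA polymerases and Dicer-like enzymes guide Argonaute proteins to matching RNA or chromatin. Polycomb and H3 lysine-9 methyltransferases mark repressed chromatin, trithorax-type enzymes mark active genes, and deacetylases, acetyltransferases and demethylases add or remove the marks. Cotton fibers are single cells of the seed coat epidermis that have left the cell cycle and grow by elongation. The roles given below are known mainly from Arabidopsis, unless another plant is named, and whether a cotton gene does what its description says was not tested.

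The libraries held 15.6 to 16.9 M counts, so that a single read per kilobase of gene model equals 0.059 to 0.064 FPKM (fragments per kilobase of gene model and per M counts). A first principal component with 65.4% of the variance split the stages, and 15DPA replicate 2 lay nearest to the 5DPA libraries. Genes with a mean of at least 1 FPKM over the 6 libraries were tested, which took in 258 of the 295 genes. The 37 others had means of at most 0.979 FPKM, and 12 of them had no read in any library. Of the tested genes, 20 were below 1 FPKM in one stage, 18 of them at 15DPA. These genes were long and of modest level: the median gene model was 2703 bases, against 1423 for all genes tested, and the median mean level was 4.54 against 6.39 FPKM. A median of 204 reads per gene and library lay behind these values. A mean of at least 20 FPKM was reached by 21 of them. Levels per library are given below in the order of replicates 1, 2 and 3.

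Most of the chromatin and silencing genes that differed between the stages were lower at 15DPA. At an adjusted p under 0.05 (edgeR quasi-likelihood test, Benjamini-Hochberg over all genes tested), 49 of 258 fell (19.0%) and 13 rose (5.04%), where 10.4% of all 40054 genes tested fell and 13.0% rose, 23.4% in either direction. Of the falls, 22 were at least 2-fold, and of the rises 3. The median log2 change, 15DPA over 5DPA, was −0.34 over the 258 genes and −0.04 over all genes tested. The call counts depended on the scaling between libraries. With library totals alone in place of TMM factors, which lowered the median of all genes by 0.29, 88 fell and 4 rose, against 19.2% and 7.24% of all genes. The median of the chromatin and silencing genes was then −0.63 and that of all genes −0.33. It lay 0.30 below that of all genes under both scalings. Because FPKM carries no TMM factor, edgeR's log2 change can depart from the ratio of the FPKM values printed with it.

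Single libraries decided many of these calls. The count of falls was 6, 61 and 46 without 15DPA replicate 1, 2 and 3, and 18, 5 and 16 without 5DPA replicate 1, 2 and 3. The count of rises was 2, 14 and 14 without 15DPA replicate 1, 2 and 3, and 5, 3 and 4 without 5DPA replicate 1, 2 and 3. Over all genes tested, the shares that fell in those fits were 2.05%, 13.5%, 11.2%, 4.77%, 2.11% and 3.90% in the same order, against 2.33%, 23.6%, 17.8%, 6.98%, 1.94% and 6.2% of the chromatin and silencing genes. The share of falls was therefore close to that of all genes without 15DPA replicate 1 or 5DPA replicate 2, and higher in the other 4 fits. Rises made up 3.74%, 15.1%, 12.8%, 7.18%, 3.72% and 6.67% of all genes tested in the same order. Among the chromatin and silencing genes they made up 0.775%, 5.43%, 5.43%, 1.94%, 1.16% and 1.55%, a smaller share in each fit. The median over the tested genes stayed between −0.41 and −0.27 in those fits. Of the 62 genes called, 7 kept an adjusted p under 0.05 without each library in turn. Replicate 2 held the highest of the 3 values for 42 of the 49 falling genes at 15DPA and for 45 at 5DPA. How often this held over all genes tested was not counted. The FPKM ranges of the stages were apart for all 49 falling genes and overlapped for 3 of the 13 rising ones. Of the 258 tested genes, called or not, 145 had ranges that were apart and lower at 15DPA. The same count was not made over all genes tested, so 145 is not shown to be particular to these genes. FPKM carries no TMM factor, and with library totals alone the median log2 change of all genes was −0.33. The contrast between falls and rises in these ranges therefore does not show that the falls are firmer.

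Genes of dividing cells moved the same way. The 181 genes described as histones, mitotic cyclins, MCM replication factors or PCNA summed to 7026 to 10568 FPKM in the 5DPA libraries and 1849 to 2830.2 FPKM at 15DPA. Within each stage the sum was highest in replicate 2. Of the 165 tested, 110 fell and 2 rose, with a median log2 change of −1.78, and 7 of the 181 had no read in any library. Their part in the lower calls of the chromatin and silencing genes was not tested. In such bulk samples, fewer cells of a type and less RNA per cell cannot be told apart. The 260 fiber genes (expansins, fasciclin-like proteins, sucrose synthases, tubulins and cellulose synthases) summed to 18015 to 22415 FPKM at 5DPA against 29486 to 38066 FPKM at 15DPA. They did not move as one. Of the 153 tested, 54 rose (35.3%, against 13.0% of all genes) and 20 fell (13.1%, against 10.4%). With library totals alone 32 rose (20.9%, against 7.24% of all genes) and 28 fell (18.3%, against 19.2%). Genes of other tissues summed to low levels. The sum over 57 chlorophyll-binding and Rubisco small subunit genes was 74 to 79.8 FPKM (5DPA) and 25.6 to 46.8 FPKM (15DPA). The 33 seed storage and oleosin genes summed to 5.61 to 8.11 and 12.4 to 16.7 FPKM, with 18 at no read, and the 2 xylem genes to at most 0.676 FPKM in any library. Of 15 green tissue genes tested, 6 fell (40%, against 10.4% of all genes) and 0 rose. All 4 seed genes tested rose (100%, against 13.0%). With 1 library left out, 2 to 6 green tissue genes fell and 1 to 4 seed genes rose.

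The tested genes fell into 13 role classes by their descriptions. The class medians ran from −0.63 for DNA methyltransferases to 0.10 for RNA-dependent RNA polymerases, and the latter was −0.18 with library totals alone. Against the 10.4% of all genes that fell, the share of falls was 42.9% for HD2-type deacetylases, 33.3% for DNA methyltransferases, 32.0% for Argonautes, 28.6% for ASH-type methyltransferases, 27.1% for demethylases and 25% for Dicer-like enzymes, in classes of 7 to 48 tested genes. It was near that of all genes for acetyltransferases (10.5%), trithorax-type (12%) and H3 lysine-9 methyltransferases (12.5%), other deacetylases (13.0%) and RNA-dependent RNA polymerases (14.3%), and no gene fell among the Polycomb and the other lysine methyltransferases. The genes named below are the 2 most abundant of each class by mean FPKM over the 6 libraries, which is the measure meant wherever a single gene is called most abundant, the 8 largest rises, the 8 largest falls and their copies on the other subgenome. Any other gene named was chosen after its values were seen, because it was called, belongs to a family of which every tested gene is given, or shows a large change that missed the threshold.

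**Figure D1:**
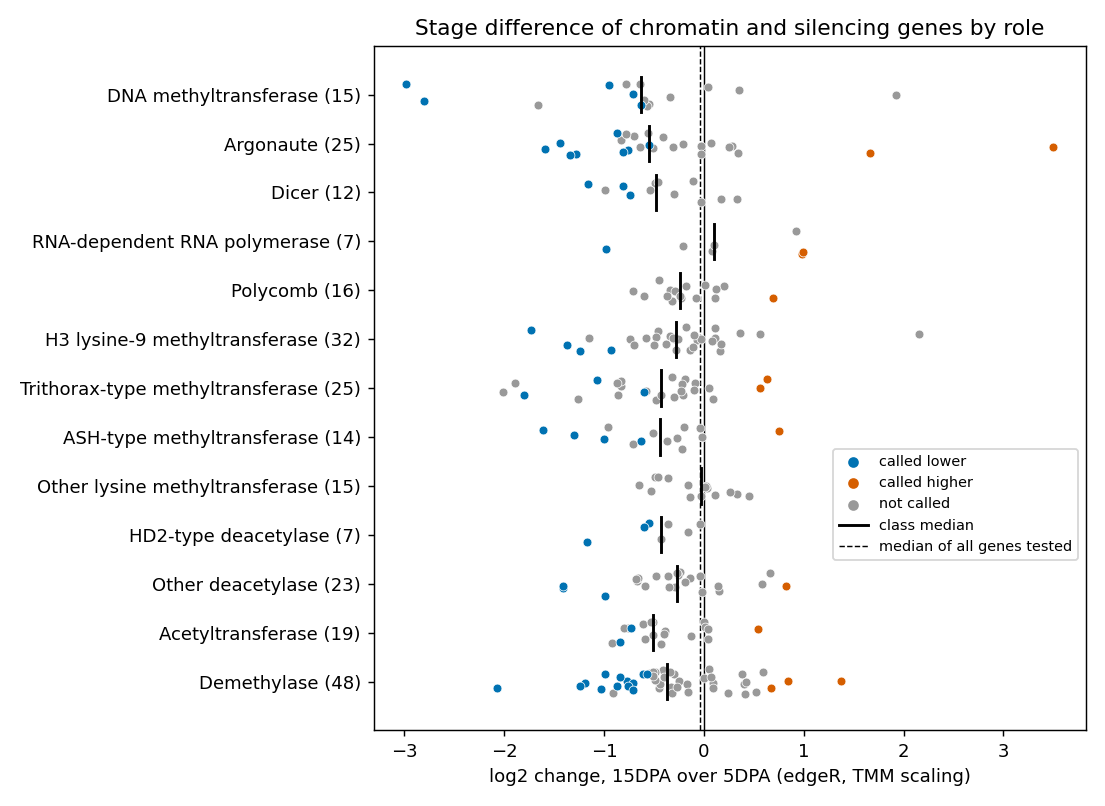
Log2 change from 5DPA to 15DPA of each of the 258 tested chromatin and silencing genes, by role class, with the number of genes in brackets. Each point is 1 gene (blue called lower, orange called higher, grey not called), black bars are class medians and the dashed line is the median of all genes tested. Points called lower stand in 11 of the 13 classes, and the 2 CMT3 genes lie farthest to the left, at −2.80 and −2.98.

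The DNA methyltransferases included the largest falls of the whole set. Of 15 tested genes (17 in all), 5 fell and none rose, with a median log2 change of −0.63. Both genes described as CMT3, the plant chromomethylase that maintains CHG methylation at sites marked by H3 lysine-9 methylation, were among them. Gh_A07G049100, on A07 from 5737780 to 5744571, held 15.4, 28.8 and 14.7 FPKM at 5DPA and 2.17, 3.74 and 1.03 FPKM at 15DPA. Gh_D07G049900, on D07 from 5261871 to 5268654, held 12.4, 23.8 and 12.1 FPKM at 5DPA and 1.04, 2.91 and 1.1 FPKM at 15DPA. In both genes each 5DPA library was above each 15DPA library, with 5DPA replicate 2 the highest. The log2 changes were −2.80 ± 0.43 (SE, edgeR adjusted p = 0.00764) for the A copy and −2.98 ± 0.42 (SE, edgeR adjusted p = 0.00602) for the D copy. Both kept an adjusted p under 0.05 without each library in turn, the largest being 0.0424 and 0.0317. The pair summed to 35.7 ± 14.6 FPKM at 5DPA against 3.99 ± 2.36 FPKM at 15DPA (mean ± SD over 3 libraries).

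The other chromomethylase described, CMT2, methylates cytosines in heterochromatin independently of small RNAs, and 2 of its 4 tested genes fell. Gh_A08G175400 held 7.64, 10.1 and 7.23 FPKM at 5DPA and 2.92, 4.68 and 3.01 FPKM at 15DPA, and the change on the log2 scale was −0.95 ± 0.19 (SE, edgeR adjusted p = 0.0153), but its adjusted p was 0.0648 to 0.0668 without 5DPA replicate 2 or 15DPA replicate 1. Gh_D08G173300 held 8.75, 11.7 and 8.29 FPKM at 5DPA and 4.16, 6.35 and 4.73 FPKM at 15DPA and changed by −0.63 ± 0.17 (SE, edgeR adjusted p = 0.038), but its adjusted p was 0.0573 to 0.135 without 5DPA replicate 1, 2 or 3 or 15DPA replicate 1 or 3. Another CMT2 gene with a short model of 618 bases, Gh_D08G173100, held 0.725, 1.36 and 2.16 FPKM at 5DPA and 3.08, 2.01 and 7.98 FPKM at 15DPA, ranges that overlap, and its change of 1.92 (edgeR adjusted p = 0.0695) missed the threshold. DRM2 is the enzyme that sets new methylation under the guidance of small RNAs. Its D copy had the highest mean over the 6 libraries in the class, though at 5DPA the CMT3 gene on A07 averaged higher. This copy, Gh_D09G031100, on D09 from 8171423 to 8176723, held 15, 17.4 and 17.1 FPKM at 5DPA and 6.85, 11.6 and 6.6 FPKM at 15DPA and fell by 0.71 on the log2 scale (SE 0.19, edgeR adjusted p = 0.0362), but its adjusted p was 0.0579 to 0.124 without 5DPA replicate 1, 2 or 3 or 15DPA replicate 1 or 3. The A copy Gh_A09G033400, on A09 from 8758153 to 8763005, held 10.7, 13.9 and 13.4 FPKM at 5DPA and 9.4, 15.9 and 7.17 FPKM at 15DPA, with overlapping ranges and a log2 change of 0.04 (edgeR adjusted p = 0.914) that was −0.23 with library totals alone. The 2 DRM3 genes, which encode a probably inactive relative of DRM2, summed to 22.8 ± 2.65 FPKM at 5DPA against 11.4 ± 3.23 FPKM at 15DPA (mean ± SD over 3 libraries). The 2 genes described as methyltransferase 1, the maintenance enzyme for CG sites, summed to 10.4 ± 2.55 FPKM at 5DPA against 5.74 ± 1.35 FPKM at 15DPA (mean ± SD over 3 libraries). None of those 4 was called. A gene described as CMT1, Gh_D01G204100, held 1.62, 3.62 and 1.25 FPKM at 5DPA and 0.552, 1.04 and 0.10 FPKM at 15DPA, and its change of −1.66 (edgeR adjusted p = 0.111) was not called. The falls in this class numbered 2, 5 and 6 without 15DPA replicate 1, 2 and 3, and 3, 2 and 3 without 5DPA replicate 1, 2 and 3.

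**Figure D2:**
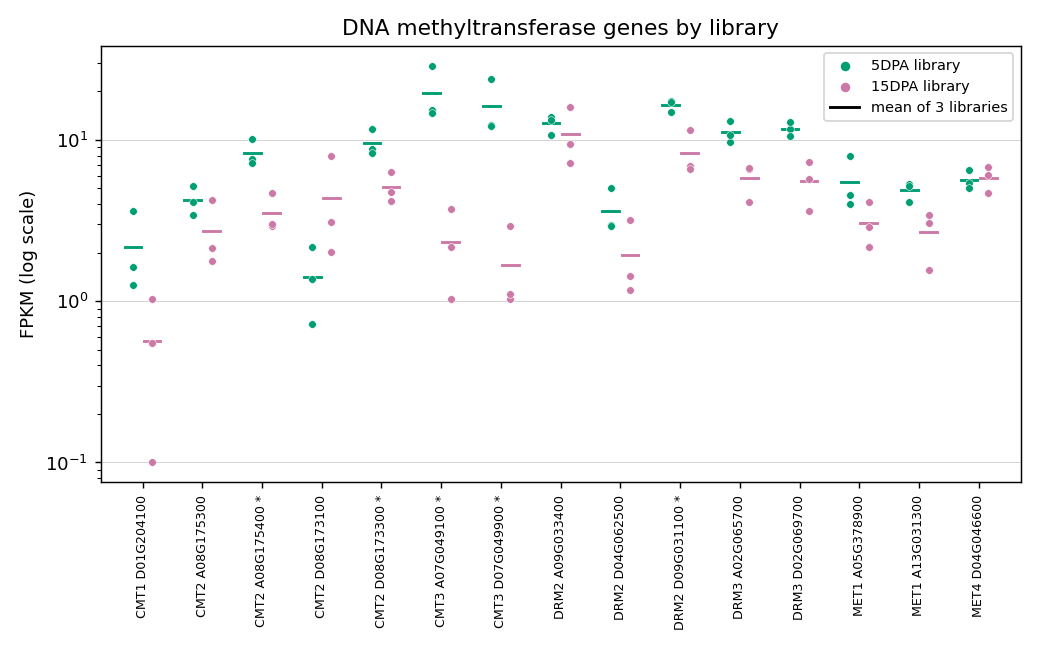
FPKM (log axis) of each tested DNA methyltransferase gene in the 3 libraries of 5DPA (green) and of 15DPA (pink), with the mean of each stage as a bar and an asterisk on the called genes. The 2 CMT3 genes span 12.1 to 28.8 FPKM at 5DPA and 1.03 to 3.74 FPKM at 15DPA, while the ranges of DRM2 on A09 and of methyltransferase 4 overlap.

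RNA-dependent RNA polymerases copy single-stranded RNA into the double strands that Dicer-like enzymes process, and here the 2 RDR6 copies rose while 1 RDR2 copy fell. Of 11 genes, 7 were tested. RDR6 makes the precursors of trans-acting small RNAs. Its A copy Gh_A05G043400, on A05 from 5268384 to 5272964, held 3.8, 5.11 and 4.67 FPKM at 5DPA and 7.66, 8.01 and 6.25 FPKM at 15DPA. The log2 change was 0.98 ± 0.16 (SE, edgeR adjusted p = 0.00875), and its adjusted p stayed under 0.05 without each library in turn. Its D copy Gh_D05G057300, on D05 from 4559850 to 4565788, held 1.84, 2.55 and 2.11 FPKM at 5DPA and 3.45, 4.3 and 2.87 FPKM at 15DPA, a change of 0.99 ± 0.18 (SE, edgeR adjusted p = 0.0125), but its adjusted p was 0.0542 without 15DPA replicate 1. In both copies every 15DPA library lay above every 5DPA library, and with library totals alone the changes were 0.69 and 0.71. RDR2 acts with RNA polymerase IV on the small RNAs that direct DNA methylation. Its D copy Gh_D12G296100 held 3.63, 4.95 and 4.34 FPKM at 5DPA and 1.4, 2.29 and 1.69 FPKM at 15DPA and fell, with a change of −0.98 ± 0.20 (SE, edgeR adjusted p = 0.0164), but its adjusted p was 0.0571 to 0.0712 without 5DPA replicate 2 or 3 or 15DPA replicate 1. Its A copy Gh_A12G302300 held 2.31, 2.89 and 2.37 FPKM at 5DPA and 1.8, 2.29 and 1.3 FPKM at 15DPA, with a change of −0.20 (edgeR adjusted p = 0.507). The most abundant gene of the class, Gh_D07G009700, described as a probable RDR5, held 3.92, 6.11 and 6.26 FPKM at 5DPA and 11.5, 8.4 and 5.32 FPKM at 15DPA, which overlap, and its change of 0.92 (edgeR adjusted p = 0.0646) was not called. The 2 tested genes described as RDR1, which acts in antiviral defence, had a median change of 0.09, and neither was called.

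Dicer-like enzymes cut double-stranded RNA into small RNAs, and 3 of the 12 tested genes fell, none rose, and the median log2 change was −0.48. The falls were 1 gene each of DCL1, the microRNA-making enzyme, of DCL2, which makes small RNAs against viruses, and of DCL4, which cuts the products of RDR6. The DCL2 gene Gh_A04G043900 held 5.78, 8.24 and 6.25 FPKM at 5DPA and 1.61, 4.31 and 1.63 FPKM at 15DPA, a change of −1.16 ± 0.34 (SE, edgeR adjusted p = 0.0462). The DCL1 gene Gh_D07G143000 held 5.2, 6.12 and 3.98 FPKM at 5DPA and 1.92, 3.41 and 1.86 FPKM at 15DPA and changed by −0.81 ± 0.23 (SE, edgeR adjusted p = 0.0408). The DCL4 gene Gh_A05G039700 held 4.61, 6.15 and 5.06 FPKM at 5DPA and 1.9, 3.72 and 2.21 FPKM at 15DPA, with a change of −0.74 ± 0.22 (SE, edgeR adjusted p = 0.0499). In each of the 3 genes, 15DPA replicate 2 was closest to the 5DPA values, and the falls numbered 0, 5 and 1 without 15DPA replicate 1, 2 and 3, and 0, 0 and 0 without 5DPA replicate 1, 2 and 3. DCL3 makes the small RNAs of DNA methylation. Among single genes of the class, the A copy of Dicer homolog 3a had the highest mean level, while the genes described as Dicer homolog 2 had the larger sum. That A copy, Gh_A06G090400, on A06 from 23423164 to 23433663, held 12.9, 14.3 and 14 FPKM at 5DPA and 11.4, 10.2 and 9.51 FPKM at 15DPA, and its D copy Gh_D06G090300 held 7.44, 8.35 and 8.23 FPKM at 5DPA and 5.76, 5.67 and 7.63 FPKM at 15DPA. Their log2 changes were −0.11 (edgeR adjusted p = 0.599) and −0.03 (edgeR adjusted p = 0.912).

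Argonaute proteins carry the small RNAs. Of 25 tested genes (29 in all), 8 fell and 2 rose, with a median log2 change of −0.55. The most abundant single genes were the AGO1-type genes on A12 and D12; AGO1 is the main microRNA effector. Gh_A12G299600, on A12 from 105453412 to 105460574, held 119, 128 and 122 FPKM at 5DPA and 86.8, 116 and 60.9 FPKM at 15DPA. Gh_D12G293300, described as argonaute 1B, on D12 from 62361049 to 62368193, held 111, 114 and 122 FPKM at 5DPA and 94.8, 118 and 66.7 FPKM at 15DPA. Their changes were −0.21 (edgeR adjusted p = 0.498) and −0.03 (edgeR adjusted p = 0.921), neither called. The 4 AGO4 genes, whose product acts in RNA-directed DNA methylation, summed to 241 ± 67.4 FPKM at 5DPA against 126 ± 44 FPKM at 15DPA (mean ± SD over 3 libraries). None of the 4 was called, although for each the FPKM ranges of the stages were apart. The 4 AGO5 genes summed to 62.9 ± 2.51 FPKM at 5DPA against 63.4 ± 3.86 FPKM at 15DPA (mean ± SD over 3 libraries).

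The falling Argonaute genes were 2 described as AGO7, which binds the microRNA that starts trans-acting small RNA production, 2 described as argonaute 16, 1 as AGO10, 1 as AGO2 and 2 as AGO1. The AGO7 gene Gh_A05G299300, on A05 from 44673151 to 44676736, held 1.63, 2.09 and 1.42 FPKM at 5DPA and 0.443, 0.758 and 0.201 FPKM at 15DPA, and the change on the log2 scale was −1.59 ± 0.41 (SE, edgeR adjusted p = 0.032), but its adjusted p was 0.0719 to 0.113 without 5DPA replicate 1, 2 or 3 or 15DPA replicate 1. The AGO7 gene Gh_A13G084500, on A13 from 22678006 to 22681352, held 3.03, 4.86 and 2.85 FPKM at 5DPA and 0.59, 1.47 and 1.19 FPKM at 15DPA, a change of −1.44 ± 0.34 (SE, edgeR adjusted p = 0.0237), but its adjusted p was 0.0542 to 0.0932 without 5DPA replicate 2 or 3 or 15DPA replicate 1. All 15DPA values of both AGO7 genes were below all 5DPA values. The argonaute 16 copy Gh_D07G184400 held 5.3, 6.38 and 5.55 FPKM at 5DPA and 1.3, 2.12 and 2.14 FPKM at 15DPA. It changed by −1.34 ± 0.22 (SE, edgeR adjusted p = 0.00888), and its adjusted p stayed under 0.05 without each library in turn. Its A copy Gh_A07G183400 held 6.29, 6.72 and 5.1 FPKM at 5DPA and 1.28, 3.59 and 1.33 FPKM at 15DPA and changed by −1.28 ± 0.35 (SE, edgeR adjusted p = 0.0382), but its adjusted p was 0.0569 to 0.12 without 5DPA replicate 1, 2 or 3 or 15DPA replicate 1 or 3; its highest 15DPA value was that of replicate 2. AGO10, which keeps a family of microRNAs away from AGO1, fell in Gh_D09G235600, with 11.7, 14 and 9.99 FPKM at 5DPA and 4.37, 6.86 and 4.85 FPKM at 15DPA and a change of −0.86 ± 0.17 (SE, edgeR adjusted p = 0.0152), but its adjusted p was 0.0656 to 0.066 without 5DPA replicate 2 or 15DPA replicate 1. The AGO2 gene Gh_A06G164700 held 7.63, 8.67 and 7.55 FPKM at 5DPA and 3.09, 5.58 and 2.99 FPKM at 15DPA and changed by −0.76 ± 0.21 (SE, edgeR adjusted p = 0.0387), but its adjusted p was 0.0606 to 0.13 without 5DPA replicate 1, 2 or 3 or 15DPA replicate 1 or 3. The AGO1 genes Gh_D09G183200 and Gh_Contig00641G001900 changed by −0.80 ± 0.18 (SE, edgeR adjusted p = 0.0203) and −0.55 ± 0.15 (SE, edgeR adjusted p = 0.0388). Across the class the falls numbered 1, 11 and 5 without 15DPA replicate 1, 2 and 3, and 3, 1 and 3 without 5DPA replicate 1, 2 and 3.

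The rising Argonaute genes were rare at 5DPA. Gh_D05G393900, described as AGO1, on D05 from 62815118 to 62828801, held 0.663, 0.831 and 0.19 FPKM at 5DPA and 3.84, 2.26 and 8.96 FPKM at 15DPA. At 5DPA these values rest on 33, 44 and 10 reads. The 15DPA libraries were all higher, with replicate 3 far above the others. A change of 3.50 ± 0.67 (SE, edgeR adjusted p = 0.0135) was the largest rise among the chromatin and silencing genes tested, and its adjusted p stayed under 0.05 without each library in turn. Gh_A05G016000, described as PNH1, the rice counterpart of the AGO10 type, on A05 from 1998359 to 2004449, held 2.85, 2.56 and 2.05 FPKM at 5DPA and 8.21, 9.07 and 2.23 FPKM at 15DPA. Its 15DPA replicate 3 lay within the 5DPA range, so the stages overlap, and the change of 1.66 ± 0.45 (SE, edgeR adjusted p = 0.0362) was called, but its adjusted p was 0.0672 to 0.126 without 5DPA replicate 1, 2 or 3 or 15DPA replicate 1 or 2. Its D copy Gh_D05G021700 held 2.0, 2.98 and 1.97 FPKM at 5DPA and 1.94, 3.1 and 0.608 FPKM at 15DPA, with a change of −0.03 (edgeR adjusted p = 0.97).

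**Figure D3:**
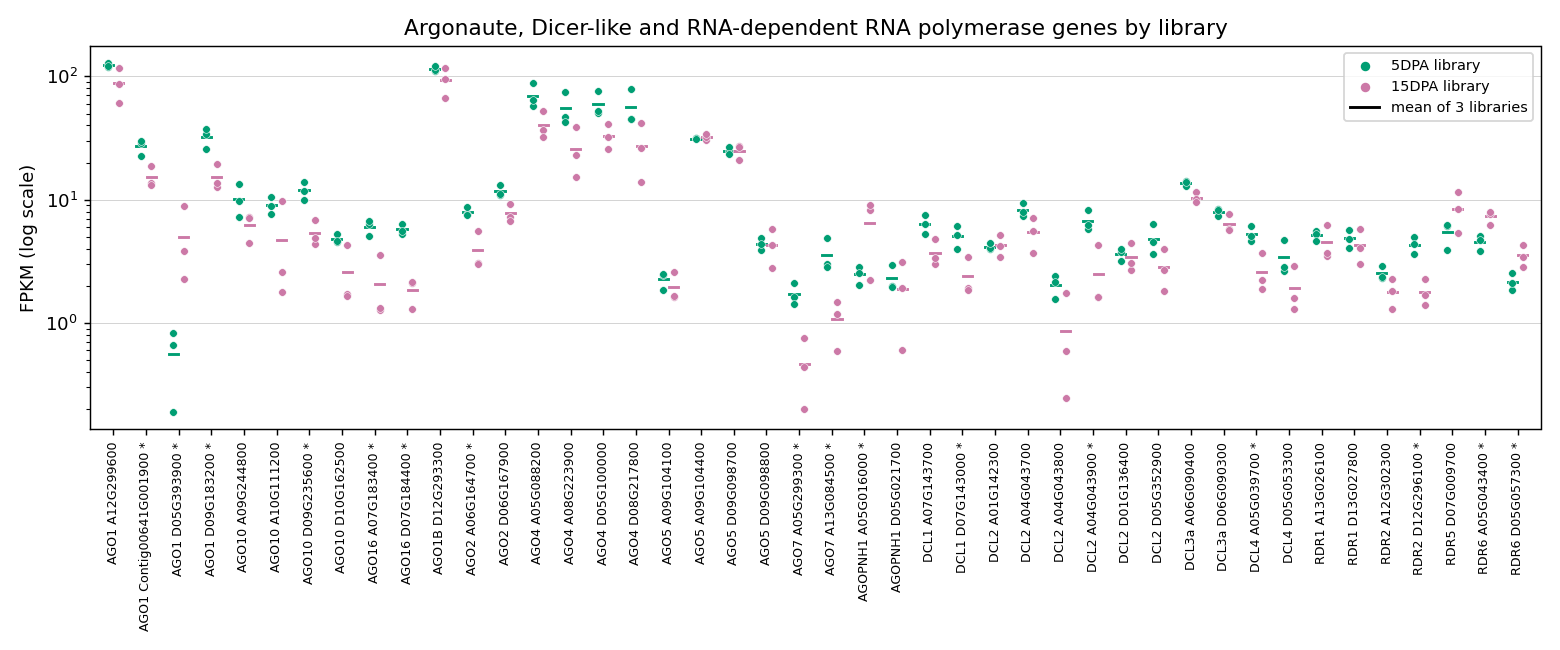
FPKM (log axis) of each tested Argonaute, Dicer-like and RNA-dependent RNA polymerase gene in the 3 libraries of 5DPA (green) and of 15DPA (pink), with stage means as bars and an asterisk on called genes. The AGO1 gene on D05 lies at 0.190 to 0.831 FPKM at 5DPA and 2.26 to 8.96 FPKM at 15DPA, the RDR6 pair also lies higher at 15DPA, and the AGO7 and argonaute 16 genes lie lower.

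Polycomb repressive complex 2 places H3 lysine-27 methylation through its catalytic subunits CLF and EZA1 (SWN) and the partners EMF2, VRN2, FIE and MSI1. All 16 genes of the class were tested, 0 fell and 1 rose, with a median log2 change of −0.24. Scaled by library totals alone, 4 fell (25%, against 19.2% of all genes) and 0 rose. The gene that rose was Gh_A03G076300, described as EMF2, on A03 from 14713577 to 14723523, with 12.3, 14.4 and 14.3 FPKM at 5DPA and 15.7, 16 and 22.1 FPKM at 15DPA and a change of 0.69 ± 0.19 (SE, edgeR adjusted p = 0.0392), but its adjusted p was 0.052 to 0.117 without 5DPA replicate 1, 2 or 3 or 15DPA replicate 1 or 3. With library totals alone its change was 0.39 (edgeR adjusted p = 0.123). The gene paired with it by description and chromosome, Gh_D03G121100, held 4.16, 4.98 and 3.79 FPKM at 5DPA and 3.94, 3.69 and 3.78 FPKM at 15DPA, with a change of 0.12 (edgeR adjusted p = 0.629) that was −0.18 with library totals alone. The FIE pair came next. Gh_A13G160800 held 15.2, 16.9 and 16.4 FPKM at 5DPA and 10.5, 13.3 and 11.2 FPKM at 15DPA, and Gh_D13G162500 held 12.6, 13.3 and 11.7 FPKM at 5DPA and 9.23, 10.1 and 6.69 FPKM at 15DPA. Their changes were −0.18 (edgeR adjusted p = 0.345) and −0.24 (edgeR adjusted p = 0.338). The 4 CLF genes together held 14.8 ± 3.09 FPKM at 5DPA against 9.83 ± 1.14 FPKM at 15DPA (mean ± SD over 3 libraries), and the 2 EZA1 genes 20.4 ± 1.26 FPKM at 5DPA against 16.2 ± 3.09 FPKM at 15DPA (mean ± SD over 3 libraries). The class also holds 2 genes described as enhancer of polycomb homolog 2, which came in through that word and belong to acetyltransferase complexes in animals; they summed to 9.3 ± 1.15 FPKM at 5DPA against 5.34 ± 1.57 FPKM at 15DPA (mean ± SD over 3 libraries).

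Outside the rule, some genes of Polycomb partner proteins fell, while no gene of the Polycomb class was called lower with TMM scaling. In the separate list of MSI, LHP1 and VIN3-type genes, 8 of 17 tested fell (47.1%, against 10.4% of all genes) and none rose, with a median log2 change of −0.55. MSI-type proteins bind histones in several complexes, chromatin assembly in replicating cells among them. Gh_A06G081500, described as MSI4, held 23.4, 28.8 and 22.8 FPKM at 5DPA and 7.33, 10.6 and 8.56 FPKM at 15DPA, with a change of −1.21 ± 0.15 (SE, edgeR adjusted p = 0.00432), and its adjusted p stayed under 0.05 without each library in turn. Its D copy Gh_D06G080300 held 24.1, 28.1 and 23.4 FPKM at 5DPA and 7.62, 13.1 and 9.85 FPKM at 15DPA, with a change of −1.02 ± 0.17 (SE, edgeR adjusted p = 0.0099), and its adjusted p stayed under 0.05 without each library in turn. The MSI3 genes Gh_A01G002500 and Gh_D01G002300 changed by −0.88 ± 0.18 (SE, edgeR adjusted p = 0.0157) and −1.09 ± 0.25 (SE, edgeR adjusted p = 0.023). Counts of falls in this list were 2, 8 and 6 without 15DPA replicate 1, 2 and 3, and 6, 3 and 5 without 5DPA replicate 1, 2 and 3.

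The H3 lysine-9 methyltransferase class had 40 genes, of which 32 were tested, 4 fell and none rose, with a median log2 change of −0.28. SUVH4, SUVH5 and SUVH6 place the H3 lysine-9 methylation that chromomethylases read. The largest fall was in the SUVH6 gene Gh_D12G233100, on D12 from 56795386 to 56799059, which held 5.59, 7.45 and 3.92 FPKM at 5DPA and 0.915, 2.52 and 0.801 FPKM at 15DPA, a change of −1.73 ± 0.41 (SE, edgeR adjusted p = 0.0246), but its adjusted p was 0.0604 to 0.0933 without 5DPA replicate 1 or 2 or 15DPA replicate 1. Its A copy Gh_A12G238500 held 3.62, 7.59 and 1.98 FPKM at 5DPA and 1.09, 3.14 and 0.673 FPKM at 15DPA, values that overlap, and its change was −1.15 (edgeR adjusted p = 0.193). Also lower was Gh_D11G142600, described as the probably inactive SUVR2, with 4.93, 7.27 and 5.7 FPKM at 5DPA and 1.6, 2.7 and 1.39 FPKM at 15DPA and a change of −1.37 ± 0.25 (SE, edgeR adjusted p = 0.0121), but its adjusted p was 0.0547 to 0.0557 without 5DPA replicate 2 or 15DPA replicate 1. The SUVH1 gene Gh_A05G274100 held 7.48, 8.85 and 5.77 FPKM at 5DPA and 1.89, 4.32 and 1.56 FPKM at 15DPA and changed by −1.24 ± 0.34 (SE, edgeR adjusted p = 0.0366), but its adjusted p was 0.0673 to 0.126 without 5DPA replicate 1, 2 or 3 or 15DPA replicate 1. The SUVH4 gene Gh_A03G178500 held 3.6, 5.53 and 4.28 FPKM at 5DPA and 1.45, 2.16 and 2.12 FPKM at 15DPA and changed by −0.93 ± 0.22 (SE, edgeR adjusted p = 0.0242), but its adjusted p was 0.0707 to 0.0951 without 5DPA replicate 2 or 3 or 15DPA replicate 1. Falls among these genes numbered 0, 6 and 5 without 15DPA replicate 1, 2 and 3, and 2, 0 and 2 without 5DPA replicate 1, 2 and 3. The highest FPKM values in the class were those of a SUVH1 pair whose gene models are 384 bases long, far shorter than a SUVH reading frame. Gh_D06G208400, on D06 from 61455791 to 61456174, held 42.7, 63.3 and 54.2 FPKM at 5DPA and 35.5, 48.6 and 22.5 FPKM at 15DPA, and Gh_A06G203200, on A06 from 121214558 to 121214941, held 43.2, 54.7 and 52 FPKM at 5DPA and 35.5, 49.7 and 27.2 FPKM at 15DPA. Their changes were −0.31 (edgeR adjusted p = 0.398) and −0.14 (edgeR adjusted p = 0.645). The SUVH5 gene Gh_D02G257600, with a model of 612 bases, held 0.733, 0.688 and 0.495 FPKM at 5DPA and 2.31, 4.53 and 0.419 FPKM at 15DPA, and its change of 2.16 (edgeR adjusted p = 0.0728) was not called.

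Trithorax-type genes, named ATX and ATXR, include the H3 lysine-4 methyltransferases of active genes, and ATXR5 and ATXR6, which place a single methyl group on H3 lysine-27 in replicating chromatin. The class was set by these names, so genes described as TRX1 or 2A are counted with the other lysine methyltransferases. All 25 ATX and ATXR genes were tested, 3 fell and 2 rose, with a median log2 change of −0.43. The largest called fall was in the ATXR5 gene Gh_D11G247800, on D11 from 46381325 to 46385495, with 1.81, 3.05 and 2.17 FPKM at 5DPA and 0.358, 0.982 and 0.319 FPKM at 15DPA and a change of −1.80 ± 0.47 (SE, edgeR adjusted p = 0.0318), but its adjusted p was 0.0564 to 0.115 without 5DPA replicate 1, 2 or 3 or 15DPA replicate 1. Its A copy Gh_A11G249600 held 2.02, 2.95 and 2.67 FPKM at 5DPA and 1.43, 1.33 and 0.692 FPKM at 15DPA, and its change was −0.86 (edgeR adjusted p = 0.116). The ATXR6 pair had larger changes that missed the threshold. Gh_A03G066600 held 1.69, 3.99 and 2.01 FPKM at 5DPA and 0.523, 1.0 and 0.164 FPKM at 15DPA, a change of −1.89 ± 0.59 (SE, edgeR adjusted p = 0.054). Gh_D03G130700 held 2.2, 4.28 and 1.7 FPKM at 5DPA and 0.197, 1.32 and 0.154 FPKM at 15DPA, a change of −2.01 ± 0.74 (SE, edgeR adjusted p = 0.0848). In both ATXR6 copies the 5DPA values were all above the 15DPA values. The ATXR4 gene Gh_D09G139700 held 7.26, 9.17 and 8.49 FPKM at 5DPA and 2.88, 5.07 and 1.89 FPKM at 15DPA and fell, with a change of −1.07 ± 0.30 (SE, edgeR adjusted p = 0.0388), but its adjusted p was 0.0705 to 0.125 without 5DPA replicate 1, 2 or 3 or 15DPA replicate 1. Its more abundant A copy Gh_A09G148700 held 12.3, 11.3 and 12 FPKM at 5DPA and 4.88, 8.94 and 9.95 FPKM at 15DPA, with a change of −0.29 (edgeR adjusted p = 0.411). The ATXR2 gene Gh_A01G016200 fell, with a change of −0.60 ± 0.16 (SE, edgeR adjusted p = 0.0327), but its adjusted p was 0.0589 to 0.125 without 5DPA replicate 1, 2 or 3 or 15DPA replicate 1 or 2. The rises were small. The ATX3 gene Gh_D12G128600 held 7.8, 8.83 and 7.35 FPKM at 5DPA and 10.4, 10.4 and 8.06 FPKM at 15DPA, values that overlap, and changed by 0.56 ± 0.14 (SE, edgeR adjusted p = 0.0288), but its adjusted p was 0.0809 to 0.115 without 5DPA replicate 1, 2 or 3 or 15DPA replicate 1. The other ATX3 gene, Gh_A12G128300, was the most abundant of the class with 27.8, 27.1 and 30.6 FPKM at 5DPA and 21.9, 16.7 and 34.5 FPKM at 15DPA, and its change of 0.09 (edgeR adjusted p = 0.848) was −0.23 with library totals alone. The ATXR7 gene Gh_D02G113800 held 4.38, 5.57 and 4.85 FPKM at 5DPA and 6.24, 6.08 and 6.29 FPKM at 15DPA and changed by 0.63 ± 0.15 (SE, edgeR adjusted p = 0.0229), but its adjusted p was 0.0664 to 0.0922 without 5DPA replicate 1, 2 or 3 or 15DPA replicate 1. With library totals alone neither rise was called and 5 genes fell (20%, near the 19.2% of all genes).

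ASH-type genes include ASHH2, the main H3 lysine-36 methyltransferase. Of 14 tested, 4 fell and 1 rose, with a median log2 change of −0.44. Both ASHR3 genes fell from low levels. Gh_A13G233400, on A13 from 105916850 to 105925855, held 1.62, 3.94 and 2.03 FPKM at 5DPA and 0.461, 0.805 and 0.742 FPKM at 15DPA, a change of −1.61 ± 0.42 (SE, edgeR adjusted p = 0.0317), but its adjusted p was 0.0677 to 0.12 without 5DPA replicate 2 or 3 or 15DPA replicate 1. Gh_D13G236600 held 2.57, 2.99 and 1.69 FPKM at 5DPA and 0.627, 1.08 and 0.697 FPKM at 15DPA, a change of −1.30 ± 0.33 (SE, edgeR adjusted p = 0.0311), but its adjusted p was 0.0501 to 0.12 without 5DPA replicate 1, 2 or 3 or 15DPA replicate 1. Every 15DPA value of the pair was below every 5DPA value of the same gene. The ASHR2 gene Gh_D09G251100 changed by −1.003 ± 0.28 (SE, edgeR adjusted p = 0.0384), but its adjusted p was 0.0822 to 0.126 without 5DPA replicate 1, 2 or 3 or 15DPA replicate 1. Of 4 ASHH2 genes 1 fell. Gh_A05G222300 held 3.91, 4.49 and 3.47 FPKM at 5DPA and 1.9, 2.29 and 2.06 FPKM at 15DPA and changed by −0.63 ± 0.14 (SE, edgeR adjusted p = 0.0204), but its adjusted p was 0.0582 to 0.0882 without 5DPA replicate 1 or 2 or 15DPA replicate 1. The ASHH3 gene Gh_A06G211500, on A06 from 122763814 to 122773700, rose from 10.6, 8.18 and 9.6 FPKM at 5DPA to 11.8, 12.5 and 14.7 FPKM at 15DPA, a change of 0.75 ± 0.19 (SE, edgeR adjusted p = 0.028), but its adjusted p was 0.0527 to 0.101 without 5DPA replicate 1, 2 or 3 or 15DPA replicate 1. With library totals alone that change was 0.46 (edgeR adjusted p = 0.0813). Its D copy Gh_D06G217400 held 6.84, 4.41 and 5.24 FPKM at 5DPA and 3.99, 4.21 and 4.86 FPKM at 15DPA, with a change of −0.04 (edgeR adjusted p = 0.91). The ASHH1 pair was among the more abundant. Gh_A06G130300 held 9.29, 7.23 and 7.64 FPKM at 5DPA and 4.52, 5.46 and 5.29 FPKM at 15DPA, a change of −0.37 (edgeR adjusted p = 0.167), and Gh_D06G126700 changed by −0.51 (edgeR adjusted p = 0.132). The 16 other lysine methyltransferase genes, described as setd3, TRX1 or 2A, gave no call among 15 tested with edgeR, 2 with an unadjusted p under 0.05 and none with DESeq2, while edgeR with library totals alone and limma each called 2 lower. Their most abundant pair, setd3 on chromosomes A12 and D12, held 5.2, 6.74 and 6.28 FPKM at 5DPA and 5.98, 6.78 and 3.45 FPKM at 15DPA in Gh_A12G172700 and 5.88, 7.28 and 5.5 FPKM at 5DPA and 4.78, 5.66 and 4.91 FPKM at 15DPA in Gh_D12G169800. Their changes were 0.11 (edgeR adjusted p = 0.763) and 0.01 (edgeR adjusted p = 0.961), and −0.17 and −0.28 with library totals alone.

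HD2-type deacetylases are a plant-specific family of nucleolar and nuclear proteins, and with Argonautes they were among the most abundant genes of the set. All 7 were tested, 3 fell and none rose, and all 7 had a log2 change below 0. The 5 HDT1 genes together held 167 ± 13.2 FPKM at 5DPA against 92.6 ± 14.9 FPKM at 15DPA (mean ± SD over 3 libraries). Gh_A05G071600, on A05 from 7998549 to 8000994, held 41.7, 47.8 and 41.1 FPKM at 5DPA and 14.4, 20.4 and 13 FPKM at 15DPA. Each 5DPA library was at least 41.1 FPKM and each 15DPA library at most 20.4 FPKM. The change was −1.17 ± 0.15 (SE, edgeR adjusted p = 0.00525), and its adjusted p stayed under 0.05 without each library in turn. Its D copy Gh_D05G084500, on D05 from 7060084 to 7062568, held 47.7, 61.6 and 54.8 FPKM at 5DPA and 29.9, 35.6 and 23.2 FPKM at 15DPA, a change of −0.60 ± 0.16 (SE, edgeR adjusted p = 0.0365), but its adjusted p was 0.0533 to 0.123 without 5DPA replicate 1, 2 or 3 or 15DPA replicate 1 or 3. The HDT3 gene Gh_A01G235500, on A01 from 113596364 to 113599499, held 43.2, 42.5 and 38.5 FPKM at 5DPA and 22.6, 24.2 and 22.3 FPKM at 15DPA, a change of −0.55 ± 0.12 (SE, edgeR adjusted p = 0.0178), but its adjusted p was 0.0501 to 0.0684 without 5DPA replicate 1, 2 or 3 or 15DPA replicate 1. Its D copy Gh_D01G229600 held 41.1, 43.1 and 40.0 FPKM at 5DPA and 36, 34.9 and 27.9 FPKM at 15DPA, with a change of −0.04 (edgeR adjusted p = 0.861). The number of falls was 6 of 7 with library totals alone (85.7%, against 19.2% of all genes). Falls in the family numbered 1, 3 and 2 without 15DPA replicate 1, 2 and 3, and 1, 1 and 1 without 5DPA replicate 1, 2 and 3.

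Of the 23 other deacetylase genes tested, 3 fell and 1 rose, with a median log2 change of −0.27. The HDA14 genes, whose Arabidopsis product is found in organelles, both fell. Gh_A05G390800 held 4.35, 5.6 and 3.97 FPKM at 5DPA and 1.38, 1.74 and 1.15 FPKM at 15DPA, a change of −1.41 ± 0.24 (SE, edgeR adjusted p = 0.00969), but its adjusted p was 0.0502 without 5DPA replicate 2. Gh_D04G034300 held 2.98, 4.52 and 3.0 FPKM at 5DPA and 1.34, 1.46 and 1.49 FPKM at 15DPA, a change of −0.99 ± 0.27 (SE, edgeR adjusted p = 0.0356), but its adjusted p was 0.061 to 0.144 without 5DPA replicate 1, 2 or 3 or 15DPA replicate 1 or 2. The HDA8 gene Gh_A13G248400 held 2.83, 3.37 and 2.52 FPKM at 5DPA and 0.722, 0.587 and 1.33 FPKM at 15DPA, a change of −1.41 ± 0.40 (SE, edgeR adjusted p = 0.0413), but its adjusted p was 0.0656 to 0.133 without 5DPA replicate 1, 2 or 3 or 15DPA replicate 1 or 2. HDA19, a nuclear deacetylase that works with TOPLESS-type corepressors, had 4 genes. Gh_D02G212800, on D02 from 66510005 to 66513257, rose from 7.28, 6.75 and 6.27 FPKM at 5DPA to 9.93, 9.66 and 9.69 FPKM at 15DPA, a change of 0.82 ± 0.15 (SE, edgeR adjusted p = 0.0127), but its adjusted p was 0.0592 to 0.0596 without 5DPA replicate 2 or 15DPA replicate 1. The more abundant pair Gh_A01G014600 and Gh_D01G013800 did not pass the test. The first held 26.6, 27.4 and 23.7 FPKM at 5DPA and 16.9, 22.8 and 12.4 FPKM at 15DPA, the second 25.7, 26.9 and 22.4 FPKM at 5DPA and 17.4, 23.8 and 11.3 FPKM at 15DPA, and their changes were −0.29 (edgeR adjusted p = 0.271) and −0.24 (edgeR adjusted p = 0.445). SAP18 is a subunit of deacetylase complexes, and its D copy had the highest mean of a single gene in the class, little above each gene of the HDA19 pair. This copy, Gh_D11G090400, on D11 from 7463667 to 7465956, held 26.4, 29.8 and 28.3 FPKM at 5DPA and 13.8, 20.5 and 11.9 FPKM at 15DPA, and its change of −0.59 ± 0.18 (SE, edgeR adjusted p = 0.0503) lay just outside the threshold. Gh_A11G089700 held 22.3, 22.3 and 19.1 FPKM at 5DPA and 10.9, 18 and 12.1 FPKM at 15DPA, with a change of −0.35 (edgeR adjusted p = 0.187).

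Histone acetyltransferases open chromatin for transcription. Of 19 tested genes (22 in all), 2 fell and 1 rose, with a median log2 change of −0.50. These shares, 10.5% and 5.26%, stand against 10.4% and 13.0% of all genes. HAC1 is a plant acetyltransferase of the CBP type, and its 7 genes together held 29.6 ± 3.61 FPKM at 5DPA against 19.1 ± 2.25 FPKM at 15DPA (mean ± SD over 3 libraries). Among them Gh_D10G001300 fell, with 3.0, 3.67 and 2.81 FPKM at 5DPA and 1.28, 1.65 and 1.39 FPKM at 15DPA and a change of −0.84 ± 0.14 (SE, edgeR adjusted p = 0.00905), and its adjusted p stayed under 0.05 without each library in turn. A GCN5 gene, the catalytic subunit of SAGA-type complexes, also fell. Gh_D11G135000 held 12.1, 11.9 and 8.75 FPKM at 5DPA and 4.09, 5.89 and 6.17 FPKM at 15DPA, a change of −0.73 ± 0.20 (SE, edgeR adjusted p = 0.0385), but its adjusted p was 0.0571 to 0.125 without 5DPA replicate 1, 2 or 3 or 15DPA replicate 1 or 2. The most abundant pair was described as MCC1. Gh_D08G245000, on D08 from 65615923 to 65618362, held 11.3, 11.2 and 10.4 FPKM at 5DPA and 12.4, 14.2 and 12.6 FPKM at 15DPA and rose, a change of 0.55 ± 0.15 (SE, edgeR adjusted p = 0.0364), but its adjusted p was 0.0501 to 0.123 without 5DPA replicate 1, 2 or 3 or 15DPA replicate 1 or 2. With library totals alone it was 0.25 (edgeR adjusted p = 0.257), and the NR description of this gene names an N-alpha-acetyltransferase instead of a histone enzyme. Its A copy Gh_A08G253800 held 22.3, 14.5 and 12.4 FPKM at 5DPA and 13.2, 13 and 13.8 FPKM at 15DPA, with a change of 0.00 (edgeR adjusted p = 0.992) that was −0.29 with library totals alone. Scaled by library totals alone, 10 of the 19 fell (52.6%, against 19.2% of all genes) and none rose.

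The demethylase class was the largest, with 61 genes and 48 tested, of which 13 fell and 3 rose, with a median log2 change of −0.37. REF6 and ELF6 remove the methylation that Polycomb places on H3 lysine-27. All 4 tested REF6 genes fell, and 2 further REF6 genes were below the level for testing. Gh_A07G058900 held 5.68, 7.16 and 5.98 FPKM at 5DPA and 3.16, 3.17 and 3.02 FPKM at 15DPA, a change of −0.71 ± 0.14 (SE, edgeR adjusted p = 0.0135), but its adjusted p was 0.0517 to 0.0625 without 5DPA replicate 2 or 15DPA replicate 1. Gh_D07G059400 held 4.41, 5.85 and 4.12 FPKM at 5DPA and 1.75, 2.92 and 1.78 FPKM at 15DPA, a change of −0.87 ± 0.20 (SE, edgeR adjusted p = 0.0236), but its adjusted p was 0.0524 to 0.0919 without 5DPA replicate 1, 2 or 3 or 15DPA replicate 1. Gh_A09G271900 held 4.37, 5.37 and 3.84 FPKM at 5DPA and 1.45, 2.44 and 1.56 FPKM at 15DPA, a change of −1.03 ± 0.19 (SE, edgeR adjusted p = 0.0128), but its adjusted p was 0.0566 to 0.0568 without 5DPA replicate 2 or 15DPA replicate 1. Gh_D09G261000 held 5.81, 7.31 and 4.79 FPKM at 5DPA and 1.61, 2.96 and 1.89 FPKM at 15DPA, a change of −1.19 ± 0.22 (SE, edgeR adjusted p = 0.0122), but its adjusted p was 0.052 to 0.0527 without 5DPA replicate 2 or 15DPA replicate 1. In each REF6 gene the 3 libraries of 15DPA were below the 3 of 5DPA, and the family summed to 21.6 ± 3.66 FPKM at 5DPA against 9.3 ± 2.07 FPKM at 15DPA (mean ± SD over 3 libraries). Both ELF6 genes fell. Gh_A05G286600 held 3.44, 5.17 and 3.49 FPKM at 5DPA and 1.8, 2.48 and 1.54 FPKM at 15DPA, a change of −0.76 ± 0.21 (SE, edgeR adjusted p = 0.0386), but its adjusted p was 0.0595 to 0.137 without 5DPA replicate 1, 2 or 3 or 15DPA replicate 1 or 3. Gh_D05G298200 held 3.95, 5.46 and 3.92 FPKM at 5DPA and 2.03, 2.98 and 2.16 FPKM at 15DPA, a change of −0.61 ± 0.18 (SE, edgeR adjusted p = 0.0448), but its adjusted p was 0.0709 to 0.158 without 5DPA replicate 1, 2 or 3 or 15DPA replicate 1 or 3. Falls in the class as a whole numbered 0, 10 and 9 without 15DPA replicate 1, 2 and 3, and 5, 0 and 4 without 5DPA replicate 1, 2 and 3.

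JMJ14 removes H3 lysine-4 methylation, and its 4 tested genes had a median change of 0.56, with 1 rise. Gh_A05G098200, on A05 from 10411388 to 10416702, held 3.29, 2.29 and 3.16 FPKM at 5DPA and 4.17, 3.74 and 4.82 FPKM at 15DPA, a change of 0.84 ± 0.23 (SE, edgeR adjusted p = 0.0387), but its adjusted p was 0.0656 to 0.12 without 5DPA replicate 1, 2 or 3 or 15DPA replicate 1 or 3. Its D copy Gh_D05G110400 held 2.15, 2.09 and 2.37 FPKM at 5DPA and 2.74, 2.83 and 2.22 FPKM at 15DPA, with a change of 0.52 (edgeR adjusted p = 0.0847). JMJ25, in Arabidopsis also named IBM1, removes H3 lysine-9 methylation from active genes. With 17 tested genes it was the most numerous description, and 4 fell and 1 rose. The gene that rose, Gh_D10G011700, on D10 from 975419 to 979819, held 2.33, 2.15 and 2.21 FPKM at 5DPA and 6.07, 5.83 and 2.37 FPKM at 15DPA. Its 15DPA replicate 3 was just above the 5DPA values, and the change was 1.37 ± 0.33 (SE, edgeR adjusted p = 0.0251), but its adjusted p was 0.0658 to 0.0942 without 5DPA replicate 1, 2 or 3 or 15DPA replicate 1. The most abundant JMJ25 gene, Gh_A12G274500, held 13.6, 21.9 and 14.2 FPKM at 5DPA and 7.96, 12.1 and 7.98 FPKM at 15DPA, and its change of −0.54 (edgeR adjusted p = 0.0984) was not called. Among 8 JMJ16 genes 2 fell and 1 rose. The fall of Gh_D10G177500, on D10 from 46091475 to 46093233, with a gene model of 744 bases, was the largest of the class: 2.24, 1.46 and 1.87 FPKM at 5DPA and 0.413, 0.476 and 0.172 FPKM at 15DPA, a change of −2.08 ± 0.49 (SE, edgeR adjusted p = 0.0244), but its adjusted p was 0.0616 to 0.0766 without 5DPA replicate 1, 2 or 3 or 15DPA replicate 1. At 15DPA these values rest on 5, 6 and 2 reads. The JMJ30 pair, linked to the circadian clock, was abundant and uncalled. Gh_D06G124700 held 17.3, 13 and 14.4 FPKM at 5DPA and 6.7, 7.77 and 15.5 FPKM at 15DPA, Gh_A06G132200 held 15.7, 11.7 and 14.3 FPKM at 5DPA and 7.5, 8.06 and 12.9 FPKM at 15DPA, and 15DPA replicate 3 was the highest 15DPA library in both. None of the 3 rises of the class was called with library totals alone, and 19 genes fell (39.6%, against 19.2% of all genes).

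**Figure D4:**
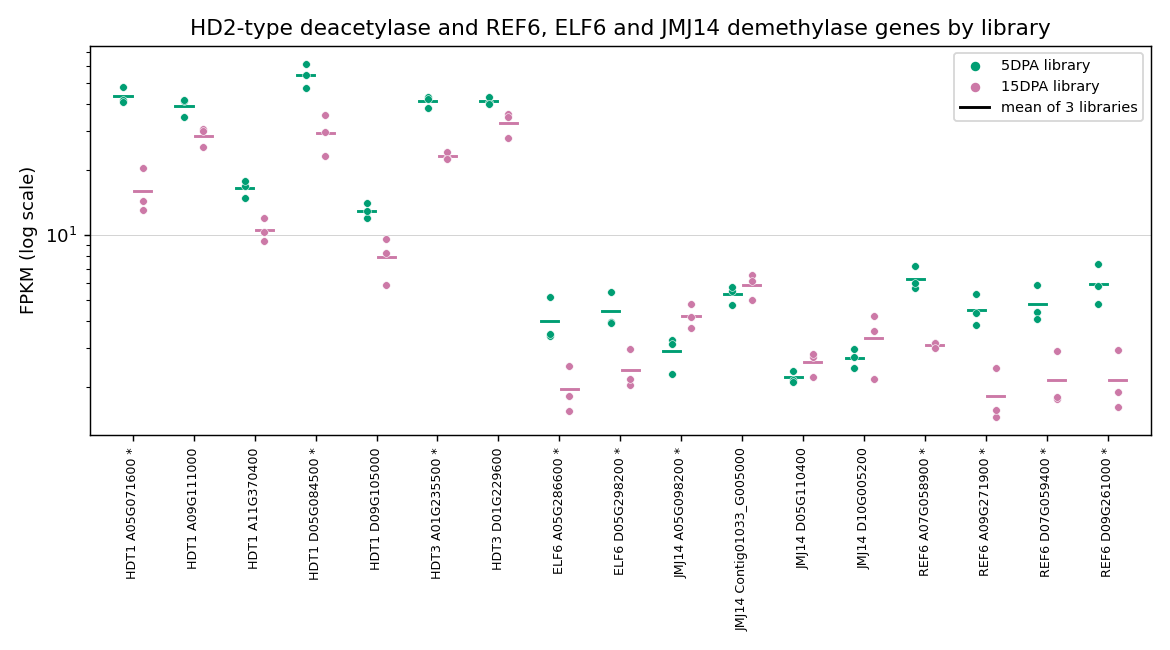
FPKM (log axis) of each tested HD2-type deacetylase gene and of each tested REF6, ELF6 and JMJ14 demethylase gene in the 3 libraries of 5DPA (green) and of 15DPA (pink), with stage means as bars and an asterisk on called genes. The 6 REF6 and ELF6 genes lie lower at 15DPA without overlap, while the JMJ14 gene on A05 lies higher, at 3.74 to 4.82 FPKM against 2.29 to 3.29 FPKM at 5DPA.

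Proteins that work with these enzymes were read from a list of 207 further genes, chosen by description, of which 153 were tested. Of these 37 fell (24.2%, against 10.4% of all genes) and 12 rose (7.84%, against 13.0%), with a median log2 change of −0.38. Factors of DNA methylation gave 7 falls (38.9%) and no rise among 18. DDM1 is the remodeling ATPase that opens heterochromatin to methyltransferases, and both its copies fell. Gh_A12G069900, on A12 from 15763732 to 15770239, held 6.74, 10.4 and 6.17 FPKM at 5DPA and 1.22, 3.44 and 0.552 FPKM at 15DPA, a change of −1.90 ± 0.53 (SE, edgeR adjusted p = 0.0394), but its adjusted p was 0.076 to 0.134 without 5DPA replicate 1, 2 or 3 or 15DPA replicate 1. Gh_D12G067900, on D12 from 11747462 to 11752076, held 9.95, 17 and 9.92 FPKM at 5DPA and 2.32, 5.12 and 1.06 FPKM at 15DPA, a change of −1.85 ± 0.47 (SE, edgeR adjusted p = 0.030), but its adjusted p was 0.0561 to 0.11 without 5DPA replicate 1, 2 or 3 or 15DPA replicate 1. IDN2, an RNA-binding factor of RNA-directed methylation, fell in 4 genes, and Gh_D06G197200 held 13, 14.9 and 13.5 FPKM at 5DPA and 4.76, 5.31 and 4.83 FPKM at 15DPA, with a change of −1.18 ± 0.13 (SE, edgeR adjusted p = 0.00338), and its adjusted p stayed under 0.05 without each library in turn. ORTHRUS-type (VIM) ligases bring the maintenance methyltransferase to methylated CG sites. Their falls numbered 0, 3 and 4 without 15DPA replicate 1, 2 and 3, and 2, 0 and 2 without 5DPA replicate 1, 2 and 3. With all libraries, 3 of 4 fell (75%, against 10.4% of all genes). The largest of these falls was in Gh_D11G003700, on D11 from 355515 to 360047, with 6.24, 10.1 and 5.73 FPKM at 5DPA and 1.62, 2.99 and 1.31 FPKM at 15DPA and a change of −1.62 ± 0.32 (SE, edgeR adjusted p = 0.0141), but its adjusted p was 0.0569 to 0.0641 without 5DPA replicate 2 or 15DPA replicate 1. Calls among the partner genes numbered 9, 57, 50, 29, 12 and 26 without 15DPA replicate 1, 2 and 3 and 5DPA replicate 1, 2 and 3.

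DNA demethylase genes moved both ways, 2 higher (28.6%) and 3 lower (42.9%) of 7 tested. DEMETER-type glycosylases cut out methylated cytosines. The DEMETER copies both rose. Gh_A01G140000 held 4.3, 4.37 and 4.4 FPKM at 5DPA and 7.28, 6.28 and 6.05 FPKM at 15DPA, a change of 0.88 ± 0.14 (SE, edgeR adjusted p = 0.00911), and Gh_D01G138300 held 1.95, 2.43 and 1.7 FPKM at 5DPA and 3.76, 3.91 and 2.74 FPKM at 15DPA, a change of 1.07 ± 0.18 (SE, edgeR adjusted p = 0.00977). Both kept an adjusted p under 0.05 without each library in turn. Genes described as ROS1, the demethylase of vegetative tissues, fell. Gh_A05G071400 held 1.34, 2.49 and 1.58 FPKM at 5DPA and 0.591, 0.60 and 0.521 FPKM at 15DPA, a change of −1.36 ± 0.26 (SE, edgeR adjusted p = 0.0138), but its adjusted p was 0.0534 to 0.0563 without 5DPA replicate 2 or 15DPA replicate 1. Gh_A09G156300 held 6.3, 5.63 and 3.86 FPKM at 5DPA and 1.14, 1.32 and 2.73 FPKM at 15DPA, a change of −1.29 ± 0.36 (SE, edgeR adjusted p = 0.0403), but its adjusted p was 0.0648 to 0.134 without 5DPA replicate 1, 2 or 3 or 15DPA replicate 1 or 2. The most abundant, Gh_A04G084300, held 15.8, 16.7 and 11.9 FPKM at 5DPA and 7.43, 9.77 and 7.77 FPKM at 15DPA, a change of −0.54 ± 0.15 (SE, edgeR adjusted p = 0.0417), but its adjusted p was 0.073 to 0.144 without 5DPA replicate 1 or 2 or 15DPA replicate 1 or 3.

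Partners of the small RNA enzymes gave 3 rises (7.14%) and 4 falls (9.52%) among 42, no more than the 13.0% and 10.4% of all genes. With library totals alone 14 fell (33.3%, against 19.2%) and 1 rose. SGS3 stabilizes the RNA that RDR6 copies. The SGS3 gene Gh_A03G240700, on A03 from 109538823 to 109542800, held 0.305, 0.26 and 0.131 FPKM at 5DPA and 1.89, 2.27 and 1.83 FPKM at 15DPA, and every 15DPA library was above every 5DPA library. At 5DPA these values rest on 11, 10 and 5 reads. Its change was 3.38 ± 0.35 (SE, edgeR adjusted p = 0.00267), and its adjusted p stayed under 0.05 without each library in turn. Other SGS3 genes went both ways, with 1 more rise and 3 falls. RNA polymerase IV and V subunits gave 2 falls among 13 (15.4%, against 10.4% of all genes). Arginine methyltransferases gave 4 among 19 (21.1%), and PICKLE-type remodelers 2 among 4 (50%), with no rise in these groups. Without 15DPA replicate 1 or 5DPA replicate 2, no gene of these groups fell. LSD-type histone demethylases gave 1 fall and 1 rise among 8 (12.5% each). The methyl group supply list (S-adenosylmethionine synthases and adenosylhomocysteinases) was mixed, with 6 rises (28.6%) and 3 falls (14.3%) among 21, and its median of 0.18 was −0.11 with library totals alone. Adenosylhomocysteinase clears the product that inhibits methyltransferases, and its genes were the most abundant partners. Gh_D09G217400 held 723, 569 and 722 FPKM at 5DPA and 824, 704 and 798 FPKM at 15DPA, with a change of 0.50 (edgeR adjusted p = 0.137), and Gh_A09G226000 held 525, 509 and 606 FPKM at 5DPA and 654, 568 and 629.6 FPKM at 15DPA, with a change of 0.47 (edgeR adjusted p = 0.129). Gh_D10G149300 and Gh_A10G123600 had means of 558 and 377 FPKM over the 6 libraries and were not called. The most abundant synthase genes, Gh_A12G138700 and Gh_D07G139700, had means of 327 and 175 FPKM and changed by 0.08 (edgeR adjusted p = 0.801) and 0.28 (edgeR adjusted p = 0.316). The synthase gene Gh_D11G380300, on D11 from 72058610 to 72060827, held 12.9, 11.2 and 14.3 FPKM at 5DPA and 25.4, 19.5 and 25.1 FPKM at 15DPA and rose, a change of 1.17 ± 0.20 (SE, edgeR adjusted p = 0.0106), and its adjusted p stayed under 0.05 without each library in turn. Gh_D09G156300 held 1.86, 1.3 and 1.68 FPKM at 5DPA and 3.78, 2.2 and 3.16 FPKM at 15DPA and rose, a change of 1.22 ± 0.33 (SE, edgeR adjusted p = 0.0356), but its adjusted p was 0.0532 to 0.131 without 5DPA replicate 1, 2 or 3 or 15DPA replicate 1 or 3.

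The A and D copies of these genes were compared in pairs. A pair was formed where exactly 1 tested gene of a description lay on the same chromosome number in each subgenome, which gave 80 pairs and 160 genes. Both copies fell in 7 pairs, both rose in 1, and none had calls in opposite directions. The pairs that fell together were CMT3, argonaute 16, HDT1, ASHR3, ELF6 and the REF6 pairs on chromosomes 07 and 09, and the pair that rose was RDR6. In 25 pairs 1 copy was called, the A copy in 9 and the D copy in 16, and in 47 neither. The log2 changes, uncalled ones included, had the same sign in 69 pairs, where 192 of the 258 tested genes had a log2 change below 0, and the median absolute difference between copies was 0.20. The largest difference, 1.69, was that of the PNH1 pair on A05 and D05. Whether the copies of a pair differed in their change was not tested. Median levels over the 6 libraries were 5.38 FPKM for the A copies and 4.78 FPKM for the D copies, with the A copy higher in 44 of 80 pairs.

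**Figure D5:**
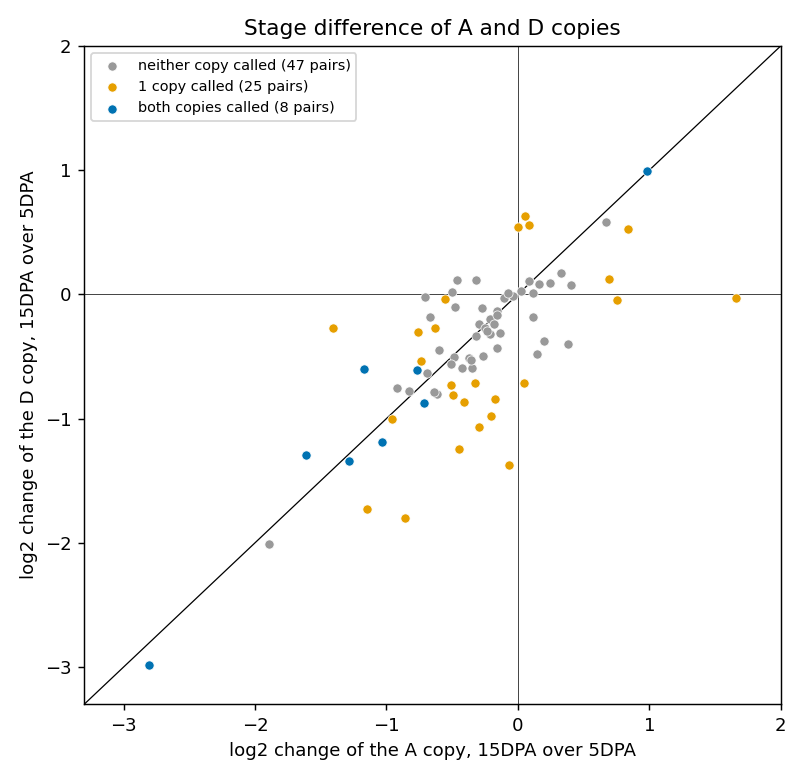
Log2 change from 5DPA to 15DPA of the A copy (x axis) and the D copy (y axis) of each of the 80 pairs, with the line of equal change. Blue points are pairs with both copies called (8), orange points pairs with 1 copy called (25) and grey points pairs with neither called (47); the CMT3 pair is at the lower left and the RDR6 pair is the blue point at the upper right.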

How the data were processed

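Per the labels' protocols, paired-end Illumina reads of poly(A) RNA were taken from 3 fiber samples at 5DPA and 3 at 15DPA; groups and replicate numbers come from the sample titles. Read counts and FPKM values of every gene in every library stand in 1 table made by the authors, per the file headers. The deposited counts are whole numbers, and the deposited FPKM values equal the count per kilobase of gene model and per M counts of the library, within a relative difference of 1e-05. HISAT and StringTie are named without versions in the submitters' processing notes; the build, annotation, counting settings and strandedness were not given in the sources used here, so coordinates carry no build name, and overlapping or antisense genes cannot be told apart. The table had 2 emptied lines, which are not analysed here.

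Genes with a mean of at least 1 FPKM were tested with edgeR 4.0.16 in R 4.3.3 (glmQLFit and glmQLFTest, TMM scaling, 15DPA against 5DPA, two-sided, no covariate), with Benjamini-Hochberg adjustment over all 40054 genes tested and a threshold of 0.05. Standard errors are the log2 change divided by the square root of F. Group values are means ± SD over 3 libraries. On simulated counts made for this comparison, over 40054 genes, the fit recovered 2% of genes changed 1.5-fold, 2% changed 2-fold, 64% changed 4-fold and 84% changed 8-fold, and called 11 of 39854 unchanged genes. Only 50 genes per fold were changed there, where 9357 genes were called in the data, so the adjusted threshold was stricter in the simulation. The shares therefore do not give the recovery in the data. Alternatives were library totals alone, DESeq2 1.42.0, limma 3.58.1 on log2(FPKM + 1) and log2(FPKM + 0.1), no filter, a filter of 5 FPKM, the replicate number as a block, and leaving out each library.

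The genes, role classes, partner list and marker lists were chosen with earlier results of these data known. The text names the 2 genes of each class with the highest mean FPKM, the 8 largest rises and falls among called genes, their single copies on the other subgenome, and for the partner list the 6 highest and the 3 largest rises and falls; other named genes were chosen after their values were seen.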

Additional observations from a re-analysis of the deposited data

How the results depend on the processing

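Among the named genes no call changed sign under the alternatives, while the number of lower calls in the whole set varied. The named genes were picked by level or by size of change in these data. Their signs therefore do not test the direction of the 49 lower calls as a set. Of the 862 values of the 68 named genes under the alternatives, 650 kept sign and call, 60 values of 16 genes changed sign without a call in either fit, 122 kept the sign and lost the call, 30 kept the sign and gained one, and 0 changed sign with a call in either fit. Chromatin and silencing genes called higher numbered 4 with library totals alone, 3 with limma on log2(FPKM + 1), 3 with limma on log2(FPKM + 0.1) and 6 with a filter of 5 FPKM, against 13. Those called lower numbered 88, 89, 86 and 26 in the same order, against 49. The falls over all genes also grew, from 10.4% to 19.2% with library totals alone and 22.3% with limma on log2(FPKM + 1). In these 2 fits 34.1% and 34.5% of the chromatin and silencing genes fell. The rises over all genes were 7.24% and 7.30%, against 1.55% and 1.16% of the chromatin and silencing genes. Both limma fits, like library totals alone, have no scaling beyond the library total. The filter of 5 FPKM left fewer genes to test. Partner genes called numbered 74 with limma on log2(FPKM + 1), against 49. The median log2 change of −0.34 was −0.63 with library totals alone, −0.52 with limma on log2(FPKM + 1) and −0.64 with limma on log2(FPKM + 0.1). DESeq2 called 17 higher (6.59%, against 16.1% of all genes) and 59 lower (22.9%, against 12.1%). The fit without a filter called 15 higher and 45 lower, with 9193 of all genes called in either direction. Calls over all genes numbered 11163 with limma on log2(FPKM + 0.1) and 7044 with a filter of 5 FPKM, against 9357. Shares of rises and falls over all genes were not counted for these fits or for the replicate number as a block.

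Leaving out 1 library gave 2 to 14 genes called higher, 5 to 61 called lower, 9 to 57 partner genes called and 2319 to 11434 calls over all genes. The lowest counts came without 15DPA replicate 1 or 5DPA replicate 2, and the cause was not tested. The median stayed between −0.41 and −0.27. With the replicate number as a block, 13 genes were called higher and 56 lower, 50 partner genes and 8967 of all genes were called. Of the genes named by rule, Gh_D08G245000 lost its call (log2 change 0.55), and Gh_A12G274500 (−0.53) and Gh_A12G238500 (−1.22) gained one. The numbers do not pair the samples: deviations of same-numbered libraries correlated at −0.217, 0.324 and 0.0617, and these calls are not used above.

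With 3 libraries a stage and a common biological coefficient of variation of 28.0%, an uncalled gene is not shown to be unchanged. Levels near 1 FPKM rest on few reads. A count of 0 allows up to 3 reads by counting error alone. Sums over lists were not tested.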
